A study of Mus musculus with 4 samples.

Results

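Resting regulatory T cells of the mouse tumour-draining lymph node were the subject here, taken as T cells that carried RNA of Foxp3 and none of 6 genes of the effector state. The cells were chosen by measured counts of these genes. A cell was a member when it had at least 300 detected genes and at most 10% mitochondrial counts, at least 1 count of Cd3e and of Foxp3, and no count of Cd79a or Cd8b1. It also had to lack Itgae, Klrg1, Gzmb, Entpd1, Lag3 and Ccr6. A count is 1 unique molecular identifier (UMI), which stands for 1 captured RNA molecule. The rule found 233 cells among the 30824 barcodes of the series, 26096 of which passed the filter on genes and mitochondrial counts. Libraries 1 to 4 held 47, 62, 61 and 63 of the 233 cells. They were set beside effector regulatory T cells, meaning the 160 Foxp3-positive cells with at least 1 count of those 6 genes, and beside 2293 conventional CD4 T cells that had Cd3e, Cd4 and Lef1 and lacked Foxp3, Cd79a and Cd8b1.

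The cells came from inguinal nodes of 4 C57BL/6J mice that carried B16F10, a transplantable mouse melanoma line, in both thighs. The 2 treated mice drank indoximod at 2 mg/ml from day 9, were given 350 ug of the BTK inhibitor ibrutinib by daily injection, and had 150 mg/kg of cyclophosphamide on day 10, while the 2 control mice were untreated. All nodes were taken 48 h after the cyclophosphamide day, and neither the age nor the sex of the mice is given in the sources used here. The suffix of a barcode names its library, 1 to 4, and nothing ties a library to a mouse or a group, so treated and control cells cannot be told apart and every value is given by library. The libraries held 7002, 6978, 7013 and 9831 barcodes and between 39589629 and 53643414 UMIs, although about 2000 cells were aimed at in each sample, per the labels.

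Regulatory T cells restrain other lymphocytes, and the transcription factor Foxp3 sets their programme. In lymph nodes a resting population recirculates through the homing receptor Ccr7 and is kept alive by interleukin-2, which it binds through the receptor chain Il2ra. On activation such cells lose node-homing receptors and gain inhibitory receptors, enzymes that make adenosine, granzymes and receptors for inflamed tissue, which is the effector state that the 6 excluded genes mark.

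One piece of sequence bears on the interleukin-2 pathway described below. STAT5, the factor that interleukin-2 activates, is known to bind the letters TTCNNNGAA, which read the same on both strands. The start of a RefSeq transcript of Cish, a gene that encodes a feedback inhibitor of that pathway and was among the genes highest in the resting cells relative to conventional cells, holds the motif at bases 1 and 12. The 30 bases around both matches (GRCm38.p6, chr9:107296654-107296683, plus strand) are shown with the motif in capitals.
Cish: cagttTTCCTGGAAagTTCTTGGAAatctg
Of 32851 RefSeq windows from 250 bases before to 50 bases after a gene's start, 8.30% held the motif at least 1 time and 0.457% at least 2 times. The windows of Il2ra, Socs1 and both windows of Tgfbr1 held none of these letters, and Il2rb and Socs2 had no window in the table. A match is a description of letters, and no binding was measured.

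Resting regulatory T cells were about 1 in 100 of the filtered cells in each library. They made up 0.8294%, 1.08%, 0.963% and 0.756% of filtered cells in libraries 1 to 4, and 0.893% over all (95% exact interval 0.782 to 1.01%). Effector regulatory T cells made up 0.547%, 0.538%, 0.742% and 0.612% in the same libraries. The resting cells were thus the more frequent of both classes in each library, and their share of the 393 Foxp3-positive T cells was 60.3%, 66.7%, 56.5% and 55.3%. The exact intervals of those 4 shares overlap, as the plot of shares by library shows. All intervals here cover counting error only.

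**Figure D1:**
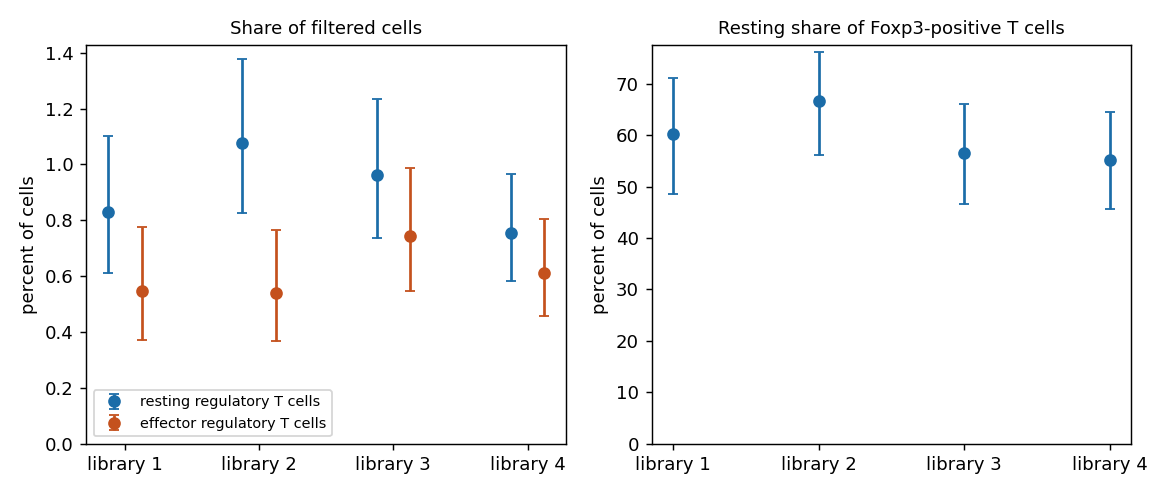
Share of cells by library. The left panel gives resting (blue) and effector (orange) regulatory T cells as percent of filtered cells, and the right panel gives resting cells as percent of Foxp3-positive T cells. Points are shares and bars are 95% exact binomial intervals. The resting share lies between 0.756% and 1.08% of filtered cells in the 4 libraries.

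The line between both classes follows single counts. Of the 233 resting cells, 107 had exactly 1 Foxp3 count, 65 had 2 and 61 had at least 3. Of the 160 effector cells, 54 had exactly 1 count over the 6 genes and 82 had at least 3. Itgae, the integrin chain that binds E-cadherin, was found in 87 effector cells and Ccr6, the receptor for Ccl20, in 70. The effector cells were also the more deeply sampled, with a median of 7936.5 UMIs against 5120 in resting and 5977 in Lef1-positive CD4 cells. When cells were thinned to 2000 UMIs before the rule was applied, 112 resting and 33 effector cells remained. A further 104 cells with Foxp3 and Cd3e were left out for Cd8b1 and 121 for Cd79a, and these had medians of 9750.5 and 10898 UMIs.

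Foxp3 RNA was also found in 0.348% of 9494 B cells, which had a median of 3863 UMIs, and after thinning to 2000 UMIs in 0.174% of them. It was more frequent in CD8 T cells, at 1.58% of 6565 cells with a median of 7155 UMIs, and at 0.595% after thinning. Whether cells with 1 Foxp3 count include such background was not tested. Cd8a was found in 4 of the 233 resting cells. Ighm, the immunoglobulin heavy chain of B cells, was present in 59.7% of resting, 83.8% of effector and 61.1% of Lef1-positive CD4 cells, against 97.0% of B cells. Scrublet called 2 resting, 1 effector and 4 Lef1-positive CD4 cells doublets, and these cells were kept. Of 30738 distinct barcode sequences, 86 were found in more than 1 library, among them those of 2 resting cells, and no resting cells of different libraries shared one.

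The markers given for the population bear out the regulatory T cell part of its name in most of the cells. Effector cells carried these markers too, so they do not bear on the resting part. Of the 4 markers besides Foxp3, namely Il2ra, Ikzf2, Ctla4 and Izumo1r, 41 resting cells had all 4, 73 had 3, 56 had 2, 39 had 1 and 24 had none. The share with none was 8.51%, 14.5%, 8.20% and 9.52% in libraries 1 to 4, and 10.3% over all. None of the effector cells and 68.3% of the Lef1-positive CD4 cells had no marker. After thinning to 2000 UMIs the shares with no marker were 19.8% of resting, 8.81% of effector and 84.1% of Lef1-positive CD4 cells.

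The levels of the markers are given in counts per 1000000 UMIs of a class in a library (CPM). Il2ra (chr2:11642807-11693193, plus strand, GRCm38), the high-affinity chain of the interleukin-2 receptor, had 467, 144, 392 and 278 CPM in resting cells of libraries 1 to 4. It had 150.0, 271, 312 and 212 CPM in effector cells and 6.44, 8.45, 5.63 and 9.00 CPM in Lef1-positive CD4 cells. The values of both regulatory classes overlapped, and both lay above the conventional cells in each library.

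Ikzf2 (chr1:69531214-69687245, minus strand), which encodes the transcription factor Helios, had 439.5, 679.7, 619.9 and 561 CPM in resting cells against 1292, 847, 994 and 889 CPM in effector cells, and 45.6, 68.5, 25.2 and 37.3 CPM in Lef1-positive CD4 cells. Every resting value was therefore below every effector value and above every conventional one. Ctla4, the inhibitory receptor that takes the costimulatory ligands from presenting cells, had 121, 54.7, 165 and 136 CPM in resting cells against 338, 126, 329 and 221 CPM in effector cells and between 6.70 and 22.2 CPM in Lef1-positive CD4 cells. Izumo1r, which encodes folate receptor 4, had 449, 292, 302 and 304 CPM in resting cells against 526, 398, 234 and 176 CPM in effector cells, and here the regulatory classes overlapped. Conventional cells had 109, 134, 72.6 and 84.3 CPM of it, below all resting values. Foxp3 itself, which the rule used, had 300.1, 278, 386 and 289.8 CPM in resting cells against 319, 252, 230.3 and 230.1 CPM in effector cells.

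**Figure D2:**
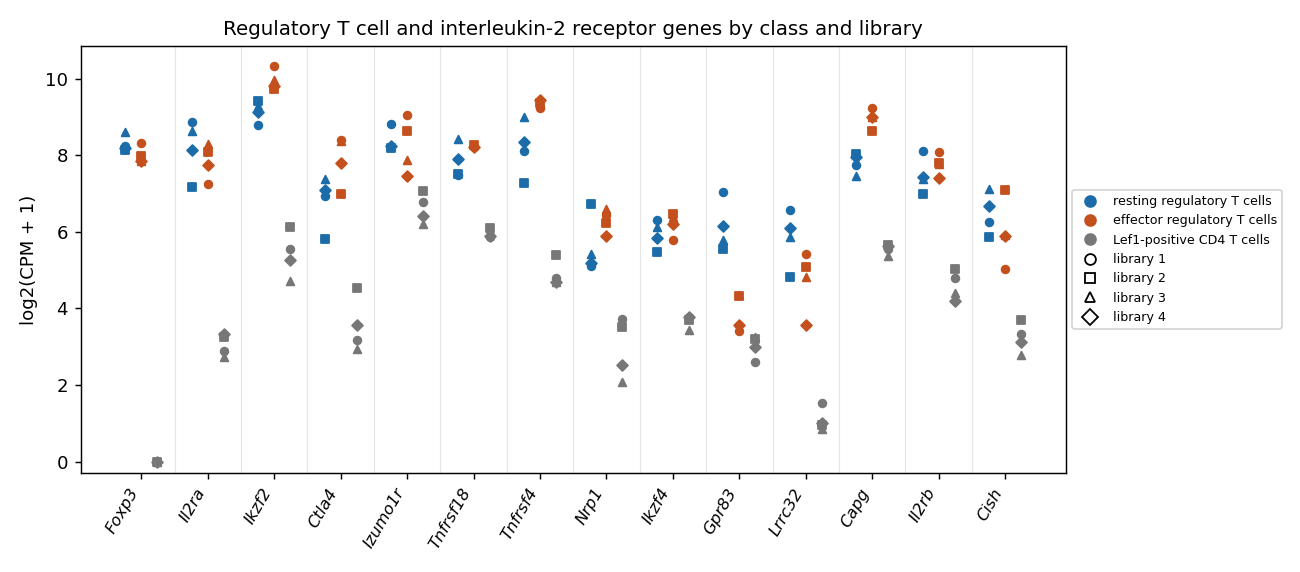
Level of regulatory T cell and interleukin-2 receptor genes, as log2(CPM + 1), in resting regulatory T cells (blue), effector regulatory T cells (orange) and Lef1-positive CD4 T cells (grey). Each symbol is the summed level of 1 class in 1 library. For every gene shown, the resting values lie above the Lef1-positive CD4 values, and Foxp3 is at 0 in the conventional cells because the rule excluded it.

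Genes were then compared between resting regulatory T cells and Lef1-positive CD4 T cells within each library. To be called, a gene needed a CPM ratio of 1.5-fold or more with 1 direction throughout its qualifying libraries, of which it needed 3. A qualifying library was one whose higher CPM amounted to 5 or more counts in the class with fewer UMIs. This is a rule of size. No significance test over the 4 within-library ratios was run. Of 6513 genes tested, 257 were called higher in resting regulatory T cells (3.95%) and 51 lower (0.783%). The median log2 ratio over all tested genes was 0.17, and TMM scaling moved it by -0.22 and left 158 higher and 109 lower, which changed the higher genes' share of the calls to 59.2% from 83.4%. The log2 ratios below, always resting over the other class, are on the CPM scale without that shift.

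The regulatory T cell programme was high in the resting cells. Of the 21 identity genes other than Foxp3, 18 had enough counts and 16 of them were called higher, with none lower and a median log2 ratio of 2.76. They were Il2ra, Ikzf2, Ctla4, Izumo1r, Tnfrsf18, Tnfrsf4, Capg, Nrp1, Gpr83, Ikzf4, Il2rb, Lrrc32, Swap70, Tnfrsf1b, Socs2 and Rgs1, and the tested genes not called were Cd5 and Ptger4. The first 12 of these 16 genes, which were followed through the alternatives, kept their calls in each one where they could be tested.

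Lrrc32, which encodes the protein GARP that holds latent TGF-beta on the cell surface, stood farthest apart among them. It had 94.0, 27.4, 56.9 and 67.8 CPM in resting cells and 1.88, 0.939, 0.804 and 1.00 CPM in Lef1-positive CD4 cells. Its log2 ratio was 5.68, with a 95% counting interval from 4.92 to 6.52. The log2 ratio was 5.37 for Il2ra, 3.75 for Ikzf2, 3.33 for Ctla4 and 1.75 for Izumo1r. Tnfrsf4, the costimulatory receptor OX40, had 273, 155, 512 and 323 CPM in resting cells and 26.6, 41.3, 24.9 and 25.0 CPM in Lef1-positive CD4 cells, a log2 ratio of 3.40. Tnfrsf18, the receptor GITR, had 179, 182, 344 and 238 CPM in resting cells and between 56.9 and 67.9 CPM in Lef1-positive CD4 cells. The lowest resting value was above the highest conventional one for each of these 3 receptors and surface proteins.

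Transcription factors and surface molecules of thymus-derived regulatory cells followed the same order. Ikzf4, the Ikaros-family factor Eos, had 78.8, 43.3, 68.9 and 56.1 CPM in resting cells and 12.6, 11.9, 9.91 and 12.8 CPM in Lef1-positive CD4 cells. Nrp1, a semaphorin receptor, had 33.3, 105, 41.9 and 35.1 CPM in resting cells and 12.1, 10.3, 3.21 and 4.75 CPM in Lef1-positive CD4 cells, with library 2 apart from the other resting values. Gpr83 (chr9:14860210-14870789, plus strand), an orphan-family peptide receptor, had 130.3, 45.6, 53.9 and 70.1 CPM in resting cells and between 5.10 and 8.57 CPM in Lef1-positive CD4 cells.

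Several genes of cytokine signalling were higher. Of 22 tested genes in that list 6 were called higher and none lower, with a median log2 ratio of 0.30, and the called genes were Il2ra, Il2rb, Cish, Socs1, Socs2 and Tgfbr1. Il2rb, the signalling chain shared by interleukins 2 and 15, had 273, 125, 165 and 173 CPM in resting cells and 26.6, 31.6, 20.1 and 17.3 CPM in Lef1-positive CD4 cells (log2 ratio 2.93). Cish (chr9:107296026-107302784, plus strand), from which the stretch above was taken, had 75.8, 57.0, 138 and 100.5 CPM in resting cells and 9.13, 11.9, 5.89 and 7.75 CPM in Lef1-positive CD4 cells (log2 ratio 3.41, 95% counting interval 3.05 to 3.77). Neither gene's classes overlapped. Il7r, the interleukin-7 receptor, had 224, 173, 264 and 98.2 CPM in resting cells and 408, 412, 393 and 475 CPM in Lef1-positive CD4 cells. It was not called, since the ratio of 1 library was just inside the limit. Il7r was called lower under many alternatives. Among them were TMM scaling (log2 ratio -1.42), Lef1 demanded of both classes (-1.47) and the stricter cell filter (-1.27). It was also called lower without cells with Cd79b, Ms4a1 or Ighm (-1.53).

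In genes of the resting and central state all calls were on the lower side. Of 21 tested genes none was called higher and Tcf7, Dapl1, Igfbp4 and Actn1 were called lower, with a median log2 ratio of -0.26. Over all tested genes 0.783% were called lower. Ccr7, the receptor that brings T cells into the node, had 191, 139, 179.7 and 185 CPM in resting cells and 225, 251, 289 and 282 CPM in Lef1-positive CD4 cells. The values of Ccr7 did not overlap, but the gene was not called. Txk had a log2 ratio of -0.76 and was called lower only under some alternatives, among them TMM scaling (-0.97).

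Tcf7, the factor TCF-1 of naive and memory T cells, had 169.8, 146, 204 and 136 CPM in resting cells and 401, 417, 401 and 418 CPM in Lef1-positive CD4 cells, a log2 ratio of -1.35. Dapl1 had 27.3, 57.0, 119.8 and 9.35 CPM in resting cells and 312, 377, 364 and 361 CPM in Lef1-positive CD4 cells. Igfbp4, an insulin-like growth factor binding protein, had 84.9, 100.4, 171 and 93.5 CPM in resting cells and 303, 321, 362 and 375 CPM in Lef1-positive CD4 cells. Each of the 3 was lower in resting cells of all libraries. The rule demanded Lef1 of the conventional cells only. With Lef1 demanded of both classes, Igfbp4 was no longer called (log2 ratio -1.28).

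Although 6 effector genes were excluded, some other genes of activation were higher in the resting regulatory cells than in conventional ones. Of 21 tested genes in the effector and activation list 8 were called higher and none lower, with a median log2 ratio of 1.06. They were Gata3, Tnfrsf9, Irf4, Ikzf3, Tgfb1, Lgals1, Ahnak and Nt5e. Tnfrsf9, the costimulatory receptor 4-1BB, had 39.4, 52.5, 41.9 and 46.7 CPM in resting cells and 9.40, 8.45, 11.3 and 4.50 CPM in Lef1-positive CD4 cells (log2 ratio 2.46). Nt5e, the enzyme CD73 that makes adenosine, had 27.3, 38.8, 35.9 and 32.7 CPM in resting cells and 12.9, 13.8, 4.82 and 7.003 CPM in Lef1-positive CD4 cells. The classes did not overlap in either gene.

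Lgals1, which encodes galectin-1, had 379, 1209, 329 and 458 CPM in resting cells and 151, 166, 151 and 167 CPM in Lef1-positive CD4 cells. The size of this difference depended on which cells were admitted. Of the 530 Lgals1 counts in resting cells of library 2, 466 lay in cells with Mki67 or Top2a, and without such cells in any class the log2 ratio was 0.87 instead of 1.99 and the gene was not called. It was 0.30 without cells with Cd79b, Ms4a1 or Ighm and 1.31 after thinning, again not called. Gata3, which had 78.8, 95.8, 105 and 74.8 CPM in resting cells and between 39.1 and 47.5 CPM in Lef1-positive CD4 cells, and Ikzf3, the factor Aiolos, lost their calls under TMM scaling, at log2 ratios of 0.82 and 1.10.

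Genes induced by the T cell receptor, which also respond to costimulation, had 5 of 16 tested members called higher and none lower, and these were Egr2, Irf4, Tnfrsf9, Cd83 and Pim1. Pim1, a survival kinase, had 146, 171, 323 and 182 CPM in resting cells and 42.4, 40.1, 44.2 and 52.3 CPM in Lef1-positive CD4 cells (log2 ratio 2.16). Irf4, the factor that drives effector differentiation, had 15.2, 4.56, 32.9 and 25.7 CPM in resting cells and 4.83, 9.39, 4.02 and 5.50 CPM in Lef1-positive CD4 cells. Library 2 ran the other way for Irf4 but had too few counts to qualify. In library 4, 10 of 11 Irf4 counts lay in 1 cell, and resting cells without Mki67 or Top2a there had 2.95 CPM. Cd83, an activation marker, had 15.2, 6.84, 44.9 and 44.4 CPM in resting cells and 2.15, 9.08, 12.1 and 6.002 CPM in Lef1-positive CD4 cells, and its values overlapped between the classes. In library 4, 15 of 19 Cd83 counts lay in 1 cell.

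The T cell receptor signalling genes were at a like level on this rule, with none of 22 tested called and a median log2 ratio of -0.13. Btk, the main target of ibrutinib, had 1 count in all resting cells, and Ido1, the enzyme of the pathway that indoximod acts on, also had 1 count. Of the tryptophan, aryl hydrocarbon receptor and amino acid stress list only 6 of 24 genes had enough counts and none was called. None of 11 p53 and DNA damage genes, none of 25 type I interferon genes, none of 14 glycolysis and hypoxia genes and none of 11 dissociation stress genes was called in either direction.

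Smaller groups of calls came from the other lists. Over all tested genes 3.95% were called higher and 0.783% lower, so a single call says little about its list. Costimulatory receptors had 6 of 19 called higher, namely Ctla4, Tnfrsf4, Tnfrsf9, Tnfrsf18, Tnfrsf1b and Cd81, and 1 lower, the helper ligand Cd40lg. Interferon-gamma GTPases, which attack pathogen vacuoles, had 3 of 14 called higher. Gbp3 had 30.3, 25.1, 35.9 and 28.0 CPM in resting cells and 4.03, 5.32, 9.64 and 5.002 CPM in Lef1-positive CD4 cells, and Gbp5 and Gbp7 had log2 ratios of 1.70 and 1.13, with Gbp7 not called under TMM scaling (0.92). Ccr2, a receptor for inflammatory monocyte chemokines, was the 1 of 12 homing receptors called higher, with 36.4, 16.0, 27.0 and 4.67 CPM in resting cells and 5.91, 7.83, 0.536 and 4.75 CPM in Lef1-positive CD4 cells. Library 4 showed no such difference in Ccr2 and did not qualify. The call rests on few cells, since 11 of 12, 7 of 7 and 7 of 9 counts of Ccr2 in resting cells of libraries 1 to 3 lay in 1 cell each. Of 14 survival and death genes, Bcl2l1 and Bak1 were called higher (log2 ratios 1.00 and 0.79), and both lost the call under TMM scaling (0.83 and 0.60). Of 15 lineage transcription factors, Gata3 and Ikzf3 were called higher.

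Few resting cells carried Mki67 or Top2a, genes of dividing cells. Cells with either were 4.26%, 17.7%, 4.92% and 4.76% of resting cells in libraries 1 to 4, against 45.2%, 25.8%, 48.9% and 41.2% of effector cells, and between 3.13% and 5.42% of Lef1-positive CD4 cells. Library 2 thus had the highest share among the resting cells and the lowest among the effector cells. After thinning to 2000 UMIs, Mki67 was found in 3.08% of resting, 23.3% of effector and 1.05% of Lef1-positive CD4 cells. Of 18 tested cell cycle genes Tyms and Rrm2 were called higher than in Lef1-positive CD4 cells, and the list had a median log2 ratio of 1.55. Tyms, which makes thymidylate for DNA, had 13 of 13, 43 of 45, 8 of 10 and 17 of 19 of its resting counts in cells with Mki67 or Top2a. Rrm2, a subunit of ribonucleotide reductase, had 21.2, 130.01, 24.0 and 49.1 CPM in resting cells and between 7.50 and 14.7 CPM in Lef1-positive CD4 cells. All 57 of its counts in resting cells of library 2 lay in 5 cells, and it lost its call under TMM scaling (log2 ratio 2.27).

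Outside the lists, the genes called highest over Lef1-positive CD4 cells were Flicr, Coro2a, Arhgap20, Sdc4, Hopx and Gsta4. Flicr, a non-coding RNA, overlaps Foxp3 on the same strand, so that its counts cannot be told apart from Foxp3 reads with certainty. Coro2a, an actin-binding coronin, had 94.0, 59.3, 83.9 and 74.8 CPM in resting cells and 3.49, 3.44, 6.70 and 6.25 CPM in Lef1-positive CD4 cells (log2 ratio 3.92). Hopx, a homeodomain protein that binds no DNA, had 158, 153, 117 and 149.6 CPM in resting cells and 20.1, 16.3, 15.3 and 19.3 CPM in Lef1-positive CD4 cells (log2 ratio 3.03). Both were far above the conventional cells in each library. The genes called lowest were Ggt5, Klrd1, Pdlim4, Sgk1, App and Hs3st3b1. Sgk1, a salt-regulated kinase, had 3.03, 6.84, 8.98 and 9.35 CPM in resting cells and 31.1, 31.0, 40.4 and 39.3 CPM in Lef1-positive CD4 cells. Ggt5 rested on 2 counts in resting cells, and its log2 ratio of -3.89 had a 95% interval from counts of -6.94 to -2.02.

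**Figure D3:**
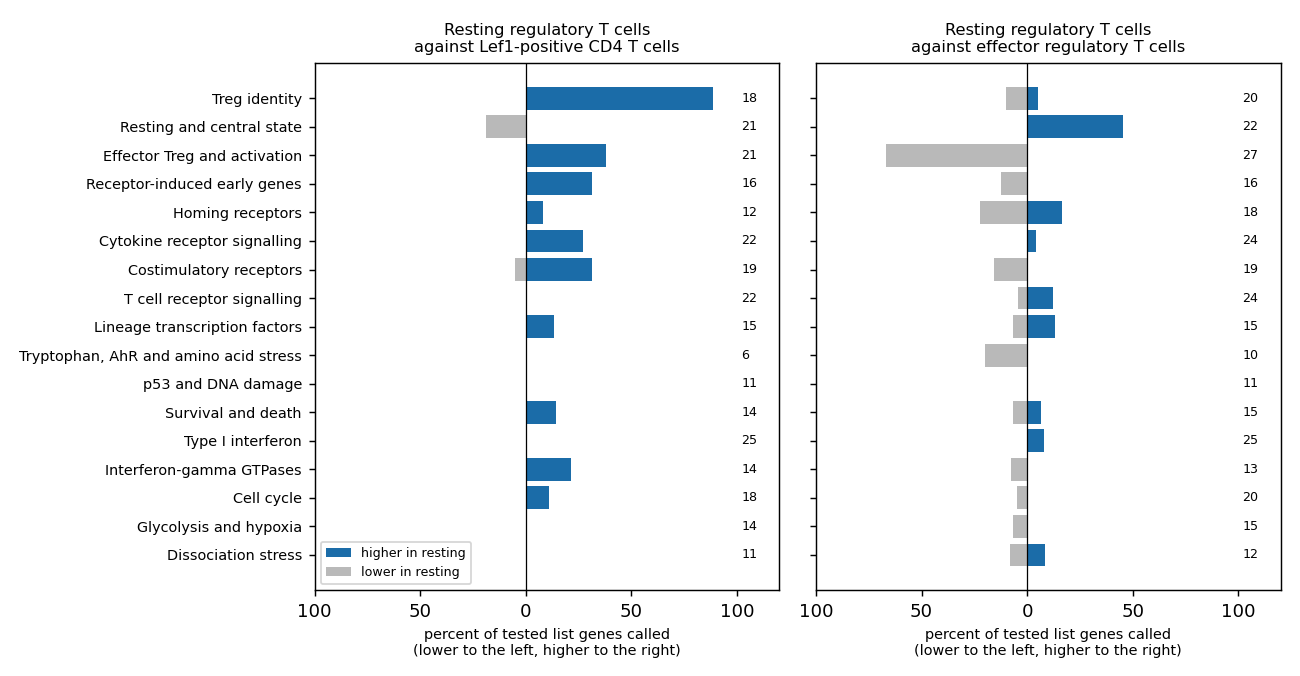
Share of the tested genes of each list that were called higher (blue, to the right) or lower (grey, to the left) in resting regulatory T cells, against Lef1-positive CD4 T cells in the left panel and against effector regulatory T cells in the right panel. The number of tested genes stands at the right edge of each panel. Identity genes are mostly higher than in conventional cells, and effector and activation genes are mostly lower than in effector cells.

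Resting and effector regulatory T cells were divided by genes of the effector state, and both had Foxp3, so the rule itself favours differences in state. Of 6966 genes tested, 99 were called higher in resting cells (1.42%) and 313 lower (4.49%), and the median log2 ratio of all tested genes was -0.22. TMM scaling moved that median by 0.18 and left 169 higher and 178 lower, so that the share of higher calls was 48.7% against 24.0%. Of 20 tested identity genes 1 was called higher, Gpr83, and 2 lower, Ctla4 and Capg, with a median log2 ratio of -0.34. Gpr83 had 9.57, 19.2, 19.3 and 10.9 CPM in effector cells, against the 45.6 to 130.3 CPM of resting cells given above, with a log2 ratio of 2.30 (95% interval from counts 1.70 to 2.93). Capg, an actin-capping protein, had 212, 260.0, 174 and 248 CPM in resting cells and 603, 398, 509 and 512 CPM in effector cells. Ctla4, at a log2 ratio of -1.14, and Capg lost their calls under TMM scaling (-0.95 and -0.97). Both also lost them after thinning (-1.26 and -1.29) and with at least 2 Foxp3 UMIs (-0.90 and -0.82). Without cells with Cd79b, Ms4a1 or Ighm, Capg was at -0.07 and not called.

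Genes of the resting and central state were the main group on the high side. Of 22 tested genes 10 were called higher and none lower, with a median log2 ratio of 1.21, among them S1pr1, Bach2, Satb1, Bcl2, Igfbp4, Nsg2, Actn1, Txk and Ly6c1. Ly6c1, a surface protein of resting and memory lymphocytes, had 90.9, 119, 186 and 129 CPM in resting cells and 3.19, 30.2, 3.22 and 8.17 CPM in effector cells (log2 ratio 3.73). Bcl2, the survival protein, had 376, 201, 383 and 367 CPM in resting cells and 22.3, 129, 70.9 and 36.8 CPM in effector cells (log2 ratio 2.40). Neither gene overlapped between the regulatory classes, and in Lef1-positive CD4 cells Bcl2 had between 149 and 190.1 CPM, below all resting values.

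Bach2, the repressor that holds back effector differentiation, had 100.03, 79.8, 62.9 and 35.1 CPM in resting cells and 9.57, 46.6, 11.3 and 16.3 CPM in effector cells. The lowest resting and the highest effector value overlapped, in libraries 4 and 2. Txk, a kinase of the family that Btk belongs to, had 103.06, 139, 141 and 119 CPM in resting cells and 41.5, 60.3, 49.9 and 38.1 CPM in effector cells. Ccr7, Tcf7 and Lef1 had log2 ratios of 1.03, 1.10 and 1.33 and were not called. The difference was under 1.5-fold in library 2 for each of them, and for Ccr7 in library 4 as well.

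The effector and activation list showed the opposite order. Leaving aside the 6 genes that the rule used, 18 of 27 tested genes were called lower in resting cells and none higher, with a median log2 ratio of -2.01. Icos, the inducible costimulator, had 72.8, 107, 126 and 84.1 CPM in resting cells and 466, 277, 514 and 485 CPM in effector cells (log2 ratio -2.22). Rora, a nuclear receptor of tissue regulatory cells, had 18.2, 20.5, 35.9 and 11.7 CPM in resting cells and 63.8, 96.0, 130.4 and 113 CPM in effector cells. S100a4, a calcium-binding protein of motile effector cells, had 9.09, 121, 252 and 108 CPM in resting cells and 1433, 1031, 1211 and 1104 CPM in effector cells (log2 ratio -3.27). The effector values were above the resting ones in every library for all 3.

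Ebi3, a subunit of interleukin-35, had 2 counts in all resting cells, with a log2 ratio of -4.95 and a 95% interval from counts of -8.02 to -3.05, and 44.7, 27.4, 38.7 and 46.3 CPM in effector cells. Havcr2, the inhibitory receptor TIM-3, had 1 count in resting cells and 19.1, 19.2, 9.66 and 13.6 CPM in effector cells, at a log2 ratio of -4.45 (-9.80 to -1.86). Ahr, the receptor for tryptophan breakdown products, had 9.09, 25.1, 5.99 and 7.01 CPM in resting cells and 51.1, 21.9, 61.2 and 55.8 CPM in effector cells. Library 2 ran the other way and Ahr was not called. Of the 10 tested genes of its list 2 were called lower, the amino acid transporter Slc7a5 and the translation repressor Eif4ebp1, which had between 6.84 and 12.1 CPM in resting cells and between 25.9 and 35.4 CPM in effector cells.

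**Figure D4:**
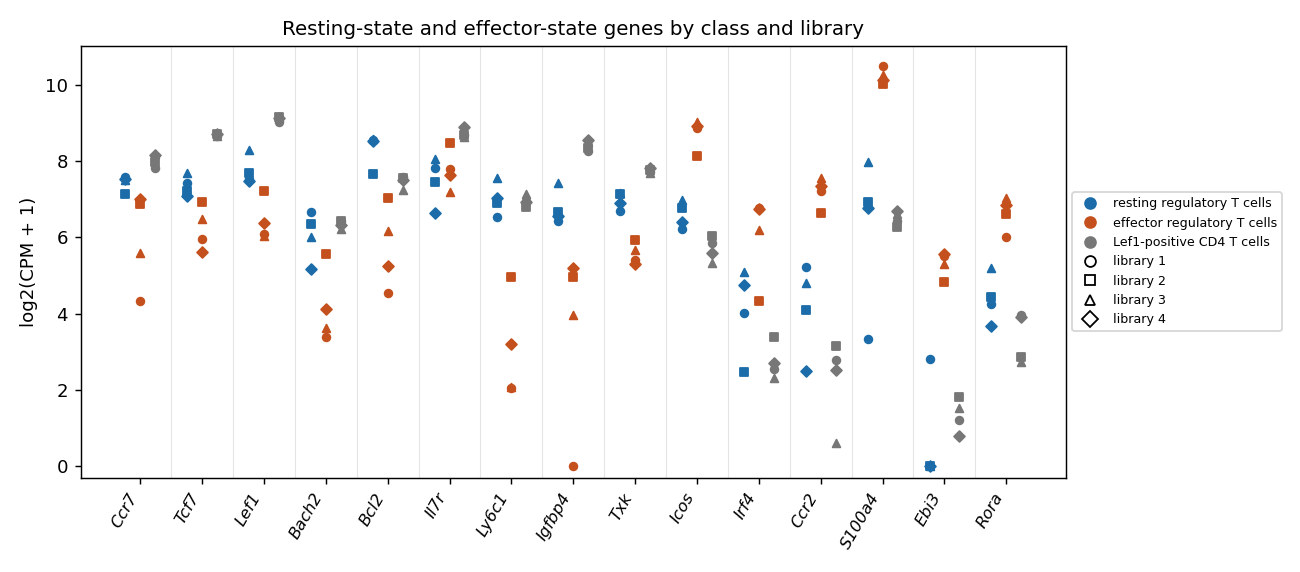
Level of genes of the resting state (left part) and the effector state (right part), as log2(CPM + 1), in resting regulatory T cells (blue), effector regulatory T cells (orange) and Lef1-positive CD4 T cells (grey). Each symbol is 1 class in 1 library. Bcl2, Ly6c1 and Txk lie higher in the resting than in the effector cells of every library, and Icos, Ccr2, S100a4 and Ebi3 lie lower.

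Homing receptors divided along the same line. Over all tested genes 1.42% were called higher in resting than in effector cells and 4.49% lower. Of 18 tested, 3 were called higher in resting cells, among them S1pr1 and Itga6, and 4 lower, among them Ccr2, Ccr4 and Ccr10. S1pr1 lets cells leave the node, and Ccr4 and Ccr10 bind chemokines of the skin. Ccr10 had 0, 2.28, 2.99 and 2.34 CPM in resting cells and 31.9, 10.97, 69.2 and 66.7 CPM in effector cells, with a log2 ratio of -4.73 that rests on 3 resting counts (95% interval from counts -7.03 to -3.15). Ccr2 had 147, 98.7, 185 and 162 CPM in effector cells, all above the resting values.

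T cell receptor signalling had 3 of 24 tested genes called higher, among them Txk and Themis, and 1 lower, the kinase Tec. The shares over all tested genes were 1.42% higher and 4.49% lower. Themis, which tunes receptor signals during thymic selection, had 75.8, 38.8, 71.9 and 30.4 CPM in resting cells and 6.38, 24.7, 16.1 and 15.0 CPM in effector cells. Among 15 lineage factors Bach2 and Bcl11b were called higher and Rora lower. Bcl11b, the factor of T cell commitment, had 521, 445, 584 and 432 CPM in resting cells, 274, 252, 261 and 225 CPM in effector cells and between 430.1 and 442 CPM in Lef1-positive CD4 cells.

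The other lists gave few calls against effector cells. Over all tested genes 1.42% were called higher and 4.49% lower, so a single call says little about its list. Costimulatory receptors had Icos, Ctla4 and Tnfrsf9 lower among 19, receptor-induced genes had Irf4 and Tnfrsf9 lower among 16, and cytokine signalling had Bcl2 higher among 24. Type I interferon genes had Oasl2 and Slfn1 higher among 25. Oasl2, an antiviral protein, had 21.2, 6.84, 27.0 and 11.7 CPM in resting cells and 0, 2.74, 3.22 and 1.36 CPM in effector cells. These levels rest on 7, 3, 9 and 5 resting counts, all 3 of library 2 in 1 cell, and 3 libraries qualified. In survival and death 1 of 15 was higher (Bcl2) and 1 lower (Bcl2a1d), and in dissociation stress 1 of 12 was higher (Jun) and 1 lower (Fosb). Gbp3 among 13 interferon-gamma GTPases, Cenpf among 20 cell cycle genes (median log2 ratio of the list -1.47) and Pgk1 among 15 glycolysis and hypoxia genes were called lower, and none of 11 p53 and DNA damage genes was called.

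Outside the lists Arhgap20, Tnfsf8, Treml2, Airn, Pik3ip1 and Rcn1 were called highest over effector cells. Arhgap20, a GTPase-activating protein, was high against both classes, with 18.2, 18.2, 24.0 and 21.0 CPM in resting cells, 3.19, 2.74, 1.61 and 0 CPM in effector cells and between 1.501 and 2.82 CPM in Lef1-positive CD4 cells. Airn overlaps Igf2r on the other strand, so its counts are uncertain. Tnfsf8, the CD30 ligand, had 33.3, 34.2, 86.8 and 67.8 CPM in resting cells and 9.57, 13.7, 6.44 and 8.17 CPM in effector cells. Called lowest were Myadm, Gpr55, Anxa1, Hip1, Rapgef5 and Ctla2a. Myadm had no count in resting cells and 15.7 CPM in effector cells, which against a floor of 3 counts over all resting cells (1.96 CPM) is at least 8.03-fold lower. Anxa1, the anti-inflammatory annexin, had 1 count in resting cells and 60.6, 32.9, 30.6 and 17.7 CPM in effector cells.

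Proliferation genes, B cell RNA, myeloid RNA and depth moved with this comparison. Cells with Mki67 or Top2a were 8.15% of resting and 41.3% of effector cells. The summed level of 9 B cell markers, all detected in each class, was 338 to 737 CPM in resting, 662 to 3593 CPM in effector and 336 to 516 CPM in Lef1-positive CD4 cells. Of 8 myeloid markers, 7 were detected in resting cells and C1qa was at 0, with sums of 147 to 358 CPM in resting, 206 to 1311 CPM in effector and 113 to 202 CPM in Lef1-positive CD4 cells. Without cells that had Mki67 or Top2a, 28 genes were called higher and 203 lower, of which 13 and 66 were among the calls with all cells. Bcl2, Gpr83 and Bach2 then had log2 ratios of 1.27, 1.14 and 0.88 and were not called. Igfbp4, Themis, Bcl11b, Treml2, Pik3ip1, Rcn1, Slfn1 and Jun on the higher side and Gbp3 and Pgk1 on the lower side also lost their calls. Under TMM scaling Tnfrsf9, Gbp3, Cenpf, Fosb and Bcl2a1d were no longer called lower, at log2 ratios between -1.79 and -0.88. Bcl2a1d has near-identical gene copies, as do Ly6c1 and Ly6c2, so that reads may be split between them. When cells with Cd79b, Ms4a1 or Ighm were left out instead, 515 genes could be tested, 3 were called higher and 13 lower, and none of the higher and 1 of the lower calls was among those with all cells. Bcl2 then had a log2 ratio of 0.47 and was not called. When each cell was thinned to 2000 UMIs, 415 genes could be tested, of which 1 was called higher and 38 lower. Without library 2, 171 genes were called higher and 580 lower. The part of myeloid RNA in the ratios was not tested.

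Markers of other cells were present at differing levels. Of 6 NK cell markers 3 were detected in resting cells, with Ncr1, Klre1 and Klra8 at 0, and their sum was 4.67 to 13.7 CPM in resting, 3.19 to 24.7 CPM in effector and 19.4 to 31.9 CPM in Lef1-positive CD4 cells. Of 7 gamma-delta T cell markers 6 were detected, with Il17a at 0 and a sum of 6.84 to 81.8 CPM, and of 5 melanoma markers 2 were detected, at a sum of at most 6.84 CPM, with Tyrp1, Mlana and Mitf at 0. Follicular helper markers summed to 109 to 157 CPM in resting, 79.5 to 223 CPM in effector and 87.1 to 132 CPM in Lef1-positive CD4 cells, with Il21 at 0 in resting cells. Plasma cell markers summed to 30.4 to 57.6 CPM in resting, 87.1 to 121 CPM in effector and 24.4 to 30.1 CPM in Lef1-positive CD4 cells, and dendritic cell markers to 2.28 to 269, 32.2 to 337 and 9.70 to 93.2 CPM in the same order. The CD8 markers other than Cd8b1 summed to 15.2, 18.2, 47.9 and 577 CPM in resting cells of libraries 1 to 4, and the red cell markers to 230.4, 214, 21.0 and 11996 CPM. In libraries 1 and 2 the red cell gene Hbb-bs was spread over 28 and 46 resting cells, with at most 3 counts in a cell. The library 4 values come from few cells, which are given with the values set apart from their group.

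The members on both sides of the rule's limits differed in degree. The 126 resting cells with at least 2 Foxp3 counts had 379 CPM of Il2ra, against 203 CPM in the 107 cells with 1 count. They had 379.7 against 202 CPM of Tnfrsf4, and 115 against 225 CPM of Tcf7. For Tnfrsf4, library 2 showed no such difference, at 153 against 158 CPM, and library 3 the widest, at 704 against 192 CPM. In library 3, 1 resting cell held 53 of the 171 Tnfrsf4 counts. The 54 effector cells with 1 count of the 6 genes had 45.9 CPM of Gpr83, against 5.71 CPM in the 106 with at least 2, and 168 against 30.5 CPM of Bcl2. They had 594 against 1343 CPM of S100a4. These single-count effector cells thus lay between the resting cells and the other effector cells in Bcl2, Icos and S100a4, as the plot of cells near the limits shows. The rule chose these cells, so the values are a description.

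**Figure D5:**
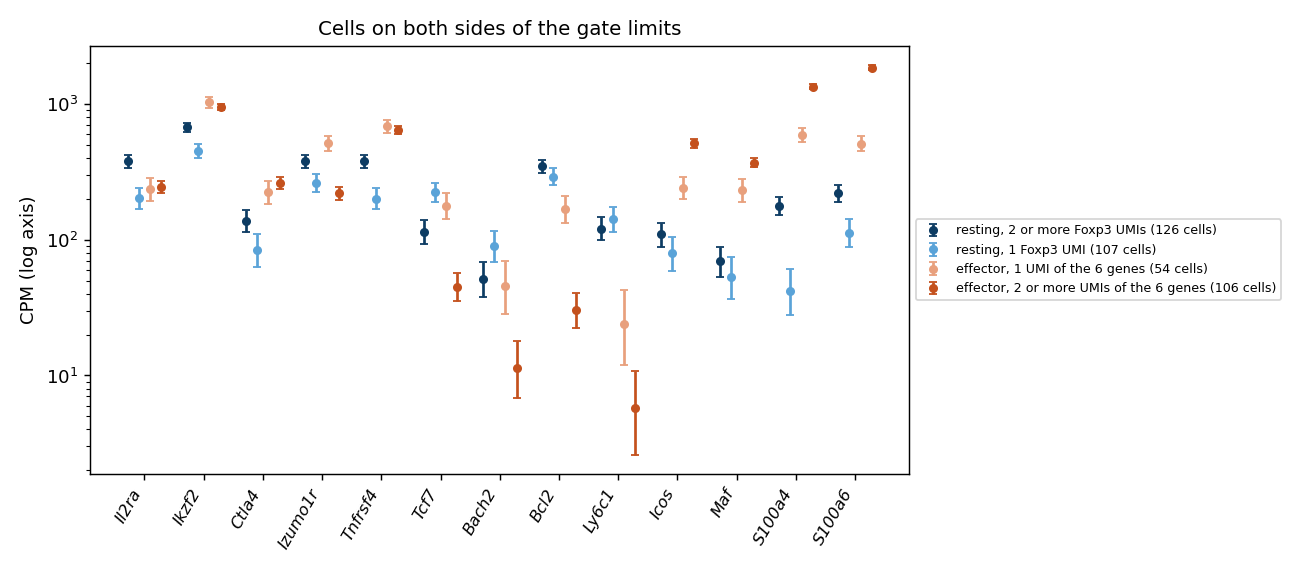
Level in CPM (log axis) of 13 genes in resting cells with at least 2 Foxp3 counts (dark blue) or 1 (light blue) and in effector cells with 1 count of the 6 excluded genes (light orange) or at least 2 (dark orange), summed over libraries. Bars are 95% exact Poisson intervals, which cover counting error only. Bcl2 is at 348, 292, 168 and 30.5 CPM in this order, and S100a4 at 179, 42.2, 594 and 1343 CPM. In libraries 2 and 3, 1 resting cell each held 41 of 53 and 40 of 84 S100a4 counts.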

How the data were processed

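The authors deposited 1 matrix of raw UMI counts for 31053 genes in 30824 barcodes, with no normalisation, made with cellranger 5.0.0 per the file headers and the genome build mm10 per the submitters' processing notes. Library numbers were read from the barcodes, and 0 columns of per-sample values were left unused. Here the counts of a class in a library were summed, divided by its UMIs there and multiplied by 1000000 (CPM). Nothing was tested for significance: treated and control libraries cannot be told apart, and for the classes, compared within each library, a rule of size was used in place of a test. Members, markers and gene lists were chosen with earlier results of these data known.

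Named genes were a fixed set of markers, then, in each list and comparison, the called genes with the greatest log2 ratios, no more than 3 (at most 30 per comparison), the 6 highest and 6 lowest called genes outside the lists, and the 8 genes that differed most between libraries in resting cells. Other list members are named where the called genes of a list are given, and some genes of the rule are not reported here. Gene positions are those of GENCODE vM21 (GRCm38), which matched all 101 named genes, and promoter windows are those of RefSeq (GRCm38.p6). Intervals are 95% exact binomial or Poisson. Thinning drew 2000 UMIs per cell with seed 1, and 896 filtered cells were shallower. Doublets were scored with Scrublet in scanpy 1.11.5, at 1.85 to 6.12% per library. TMM factors came from edgeR 4.0.16 in R 4.3.3, and other steps used scipy 1.17.1, pandas 2.3.3, matplotlib 3.10.9 and numpy 2.4.6 under Python 3.11.15. Alternatives changed the scaling, the minimum of counts, the fold, the cell filter, the cells admitted and the libraries. Resting cells held 329891 to 438439 UMIs per library, so that 5 counts are a level of about 11 to 15 CPM.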

Additional observations from a re-analysis of the deposited data

Results flagged for a closer look

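In 79 values examined over the resting cells of the 4 libraries, 12 had 1 library set apart from the other 3, with a gap to the nearest library above Dixon's 95% limit for 4 samples. The libraries are not 4 samples of 1 labelled group, and chance sets apart about 1 in 20 such groups. Hbb-bs, Hba-a1, Hbb-bt, Hba-a2, Ccl5, Gal, Apol7c and Fscn1 were examined because they differed most between libraries in resting cells. All of these genes were set apart, so 12 of 79 cannot be held against that chance rate. The remaining values set apart were those of Izumo1r, Nrp1, Lgals1 and Bcl2. Izumo1r stood at 449 CPM in library 1, above the other libraries. In library 2, Nrp1 stood high at 105 CPM and Lgals1 high at 1209 CPM, and Bcl2 stood low at 201 CPM. Of the Nrp1 counts of that library, 25 of 46 lay in cells with Mki67 or Top2a.

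In library 4 the haemoglobin genes Hbb-bs, Hba-a1, Hbb-bt and Hba-a2 stood at 8142, 1601, 1061 and 1152 CPM. One barcode there held 5115 of the red cell counts among its 18256 UMIs, with 4 counts of Foxp3 and 3 of Cd3e. Haemoglobin genes are near-identical copies whose reads cannot be assigned with certainty, and the log2 ratio of Hbb-bs over effector cells was 6.27 with that barcode and 1.51 without cells of many red cell or dendritic cell UMIs. Also in library 4, the chemokine gene Ccl5 stood at 545 CPM, Apol7c at 219.7 CPM and Fscn1, an actin-bundling protein of mature dendritic cells, at 217 CPM. For each of these 3 genes 1 cell held the largest part, with 142 of 233 counts of Ccl5, 94 of 94 counts of Apol7c and 67 of 93 counts of Fscn1. In library 3 the neuropeptide gene Gal stood at 326 CPM, and 1 cell, which had Mki67 or Top2a, held all 109 counts of it.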

How the results depend on the processing

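Against Lef1-positive CD4 T cells, 257 genes were called higher and 51 lower. TMM scaling gave 158 and 109, no minimum of counts 287 and 1080, a minimum of 10 counts 164 and 34, a 2-fold limit 116 and 17, a stricter cell filter 205 and 30, thinning 91 and 20, no cells with B cell RNA 131 and 16, and Lef1 in both classes 204 and 29. Leaving out 1 library gave 199 to 299 higher and 59 to 87 lower, the last without library 3. Against effector cells, 99 were called higher and 313 lower. TMM scaling gave 169 and 178, no minimum 218 and 636, a minimum of 10 counts 63 and 230, a 2-fold limit 31 and 130, thinning 1 and 38, at least 2 Foxp3 UMIs 74 and 199, no cells with B cell RNA 3 and 13, and no cells with Mki67 or Top2a 28 and 203. Leaving out 1 library gave 83 to 171 higher and 329 to 580 lower, both highest without library 2. Thinning and the cell exclusions leave fewer genes with enough counts, and other causes were not tested. Leaving out cells with many red cell or dendritic cell UMIs, an alternative chosen after seeing the data, gave 215 and 49, then 94 and 329.

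The share of resting cells was 1.249% under the stricter filter, 0.4444% after thinning, 0.4828% with at least 2 Foxp3 UMIs, and 4.144% when taken of gated T cells. Of the named genes' ratios under alternatives, 126 lost a call and 51 gained one in the direction of the main ratio. In 1 case, Ccl5 against Lef1-positive CD4 cells without library 4, the gained call had the opposite sign (log2 ratio -2.87). Ratios that changed sign without gaining or losing a call were not counted. No paired analysis was possible because the libraries carry no replicate number of the labels and these calls come from no test; each ratio was itself taken within a library. At the depth of 233 cells, genes below about 11 to 15 CPM in both classes could not be called against Lef1-positive CD4 cells. Genes below that level in resting cells alone, such as Sgk1, could still be called lower. Against effector cells the level was higher in libraries 1 and 2, where the effector class had fewer UMIs than the resting class (313405 and 364746).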
